A study of Caenorhabditis elegans with 2 samples.

Results

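The proteasome subunit genes of Caenorhabditis elegans were examined for binding of GRH-1, a Grainyhead transcription factor. The members were the protein-coding genes of the Ensembl annotation whose names start with pas-, pbs-, rpt- or rpn-, which gave 33 of 19973 genes. RefSeq gives a product for all 33, and for 31 of them its name contains the proteasome. The exceptions are rpt-5, listed as a 26S protease subunit, and rpn-5, listed by its PCI domain. Binding was measured by chromatin immunoprecipitation and sequencing (ChIP-seq) with an antibody against GFP in whole first-stage (L1) larvae of strain RW12208, in which a TY1, EGFP and 3xFLAG tag had been inserted at grh-1 by CRISPR. The larvae had been hatched from bleached eggs without food and were collected at an age of 6 h. There was 1 group with 2 biological replicates and no untagged or untreated group, and the tissue in which a site was bound is not resolved in whole animals. What was deposited are lists of peaks (build ce11) that give no read numbers, so the depth is unknown, and intervals on shares are 95% Wilson intervals that cover counting error only.

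The proteasome is the protease that degrades proteins marked with ubiquitin. Its core particle is a stack of rings of alpha and beta subunits, encoded by the pas and pbs genes, and the proteolytic sites are on beta subunits. The regulatory particle recognises and unfolds the substrate, and it is built from a ring of AAA ATPases, encoded by the rpt genes, and from non-ATPase subunits, encoded by the rpn genes. In C. elegans the transcription factor SKN-1A is known to raise the expression of proteasome genes when proteasome function is impaired. Grainyhead factors are best known for their roles in epidermis and other epithelia.

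A gene was counted as having a GRH-1 summit when the highest point of a peak lay between 1000 bp upstream and 200 bp downstream of the 5′ end of one of its transcripts. The pooled thresholded list held 2470 peaks, derived by the authors from both replicates and thresholded on reproducibility. A gene with a summit in it need not have one in both replicates' own lists. By the pooled thresholded list 6 of the 33 proteasome genes had a summit (18.2%, 8.61 to 34.4), where 8.16% of all protein-coding genes had one. The 6 genes were pas-4, pbs-1, rpt-2, rpn-2, rpn-3 and rpn-11, and each had 1 summit. They were spread over the complex, with 1 of 7 alpha ring genes, 1 of 7 beta ring genes, 1 of 6 ATPase genes and 3 of 13 non-ATPase genes. None of the other 27 members had a thresholded summit in the window or inside the gene. The interval for the 33 genes starts just above the share of all genes. With ranked peaks down to a −log10 irreproducible discovery rate (IDR) of 1.3 the members' count was again 6 and the share of all genes 10.4%, which is inside that interval. The interval treats genes as independent draws and the members were chosen with earlier results known, and it is given as a description.

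The sequences under 5 of the 6 summits are shown because 4 of them hold the same 8 bases and the remaining one, between rpn-3 and hsp-110, lies under the strongest member peak. Each is 201 bases of the reference genome (ce11) centred on the pooled summit, written 5′ to 3′ on the strand of the proteasome gene, so that the gene lies to the right. The windows are chrIII:8447059-8447259 on the forward strand for rpn-3, chrII:4044478-4044678 on the reverse strand for rpn-11, chrIV:1709837-1710037 on the reverse strand for pbs-1, chrV:6017719-6017919 on the reverse strand for rpt-2 and chrIII:6198736-6198936 on the forward strand for rpn-2. Capitals mark ATTGTCAT or its complement ATGACAAT, and in the rpn-3 window TTCGAGAA.
rpn-3: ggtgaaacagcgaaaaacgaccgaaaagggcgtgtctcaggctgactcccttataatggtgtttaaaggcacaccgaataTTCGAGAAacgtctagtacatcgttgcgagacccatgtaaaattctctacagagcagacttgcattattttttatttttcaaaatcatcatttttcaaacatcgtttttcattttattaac
rpn-11: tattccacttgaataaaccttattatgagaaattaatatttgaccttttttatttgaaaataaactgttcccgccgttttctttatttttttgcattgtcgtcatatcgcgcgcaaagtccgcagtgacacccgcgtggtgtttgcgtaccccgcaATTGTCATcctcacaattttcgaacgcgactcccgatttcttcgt
pbs-1: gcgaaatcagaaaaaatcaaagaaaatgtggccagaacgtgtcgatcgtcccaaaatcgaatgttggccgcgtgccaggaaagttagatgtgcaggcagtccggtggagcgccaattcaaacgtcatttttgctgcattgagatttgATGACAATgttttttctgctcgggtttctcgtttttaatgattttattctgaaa
rpt-2: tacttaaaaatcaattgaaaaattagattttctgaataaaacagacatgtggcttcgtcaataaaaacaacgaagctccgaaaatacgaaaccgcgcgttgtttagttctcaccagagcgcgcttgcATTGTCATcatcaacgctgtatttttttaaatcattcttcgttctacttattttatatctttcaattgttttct
rpn-2: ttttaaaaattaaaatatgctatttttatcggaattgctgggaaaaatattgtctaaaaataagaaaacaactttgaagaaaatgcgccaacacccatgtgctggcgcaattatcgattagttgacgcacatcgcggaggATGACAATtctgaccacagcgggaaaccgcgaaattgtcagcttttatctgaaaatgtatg

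The strongest member peak was that of rpn-3, a subunit of the lid of the regulatory particle. Its signal value, the authors' score per peak that can be compared only within a list, was 423 in the pooled list, 249 in replicate 1 and 172 in replicate 2. These values ranked 250 of 2470, 237 of 1787 and 285 of 1487 peaks. The pooled peak spanned bases 8447063 to 8447249 of chromosome III, and its summit was 194 bp upstream of rpn-3. The summits of the replicates were within 3 bp of the pooled one. This summit was shared with hsp-110, which encodes a chaperone of the HSP70 superfamily, is transcribed in the opposite direction and starts 444 bp from the 5′ end of rpn-3. The rpn-3 end was the nearer.

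Next in signal came rpn-11, whose product is the metalloprotease that removes ubiquitin chains from substrates at the proteasome. Its signal value was 272 in the pooled list (rank 481), 163 in replicate 1 (rank 444) and 118 in replicate 2 (rank 494). The pooled peak was 93 bp wide (chromosome II, bases 4044523 to 4044615) with its summit 32 bp upstream of the gene, the closest of the 6. It was the only one of the 6 summits that lay in no other gene's promoter window. The gene upstream of it, K07D4.2, is on the same strand, and 224 bp separate them.

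Close behind in rank was pbs-1, which encodes a beta ring subunit. Its signal value was 260 in the pooled list (rank 514), 148 in replicate 1 (rank 521) and 116 in replicate 2 (rank 512). The peak spanned bases 1709890 to 1709998 of chromosome IV, and the summit was 192 bp upstream of pbs-1 and 328 bp upstream of the divergent gene K08D12.3. The replicates thus placed rpn-3, rpn-11 and pbs-1 in the same order as the pooled list did.

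The remaining summits were weaker. The alpha ring gene pas-4 scored 131 in the pooled list (rank 1187), 77.4 in replicate 1 (rank 1121) and 50.1 in replicate 2 (rank 1351). Its peak, on chromosome I between bases 8728431 and 8728774, had its summit 116 bp upstream. It lay between pas-4 and the divergent gene rpb-3, which encodes a subunit of RNA polymerase II and whose 5′ end is 277 bp from that of pas-4. The replicates' summits were 60 and 24 bp from the pooled one, and pas-4 ranked behind the 3 genes above in both replicates' lists.

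The ATPase gene rpt-2 and the scaffold subunit gene rpn-2 were each found in 1 replicate's list. For rpt-2 the signal value was 116 in the pooled list (rank 1379) and 74.1 in replicate 1 (rank 1176). Replicate 2 had a summit there only in its ranked list of all candidate peaks, with a signal value of 35.6, rank 3544 of 85197 and a −log10 IDR of 0.976, where every peak of that replicate's thresholded list had at least 2. The pooled summit, in a peak spanning bases 6017647 to 6017990 of chromosome V, was midway between rpt-2 and aps-1, which encodes a subunit of a clathrin adaptor, at 150 bp from the first and 151 bp from the second. For rpn-2 the signal value was 74.6 in the pooled list (rank 2253) and 51.2 in replicate 2 (rank 1328), and replicate 1 held it only as a ranked peak with a signal value of 37.2, rank 4401 of 99502 and a −log10 IDR of 1.28. That peak spanned bases 6198664 to 6199007 of chromosome III, and its summit was 348 bp upstream of rpn-2 and 422 bp upstream of C23G10.7.

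**Figure D1:**
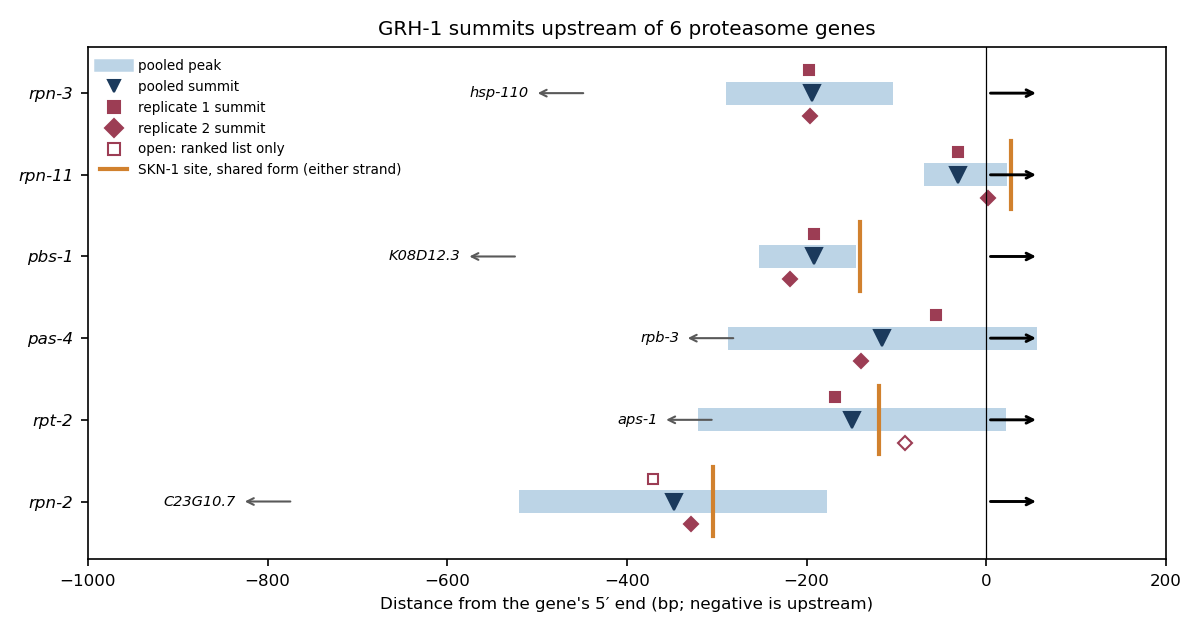
Positions of GRH-1 peaks at the 6 proteasome genes with a thresholded summit, by distance from the gene's 5′ end in bp, with genes in order of pooled signal value. Bars are the pooled peaks, triangles the pooled summits, squares and diamonds the summits of replicates 1 and 2 (open where found only in the ranked list), grey arrows the 5′ ends of divergent neighbours that share the summit and orange lines the shared 8-base site; all 6 pooled summits lie between 32 and 348 bp upstream.

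Each replicate's own list had summits for 5 of the 33 genes (15.2%, 6.65 to 30.9), where 6.64% of all genes had one in replicate 1 and 5.53% in replicate 2. Of the members, 4 (12.1%, 4.82 to 27.3) were in both lists, namely pas-4, pbs-1, rpn-3 and rpn-11, and so were 4.94% of all genes. The conservative pooled list held all 6 members and 7.96% of all genes. Across the 6 genes the pooled signal value ranged between 74.6 and 423 with a median of 195, and over all 1629 genes with a summit the median of the highest summit was 156. Of the 6 summits, 3 were among ranks 1 to 617 of the pooled list, and 1 each was among ranks 618 to 1235, 1236 to 1852 and 1853 to 2470.

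All 6 pooled summits lay upstream of the gene and within 400 bp of its 5′ end, with a median distance of 171 bp. In replicate 2's own list the summit of rpn-11 was 2 bp downstream of a 5′ end. Over all genes with a summit the median was 231 bp upstream, 93.9% were upstream and 65.9% lay within those 400 bp. For all 6 pooled summits the proteasome gene had the nearest 5′ end, which held for 74.8% of all genes with a summit. It did not hold throughout the replicates' own lists. There the rpt-2 summit of replicate 1 was nearer to the 5′ end of aps-1. Likewise the pas-4 summit of replicate 2 was nearer to that of rpb-3. At 5 of the 6 genes (83.3%) the summit was shared with a neighbour's promoter window, and each of these neighbours was divergent. Of all genes with a summit, 47.6% shared it. A divergent neighbour within 1000 bp was also common among the members without a summit, 15 of 27, and a further 7 of these had a gene on the same strand ending within 500 bp upstream. The windows of 201 bp under the 6 summits had a GC content between 32.8% and 42.3% with a median of 37.1%, and the median over the other promoter summits was 42.3%.

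The members without a thresholded summit were then looked up among all candidate peaks. Any peak of the pooled ranked list, which holds 117774 candidates, was found in the windows of 27 of the 33 members (81.8%) and of 81.2% of all genes. Of the 27 members without a thresholded summit, 21 had such a peak, with signal values between 11.1 and 60.5 and a median of 31.4. The median over all 18344 protein-coding genes without a thresholded summit, these 27 included, was 32.5 among those that had one. The member nearest to the threshold by IDR was the beta ring gene pbs-5, with a pooled signal value of 49.8 and a −log10 IDR of 1.22. In replicate 1 its value was 44.1 with 1.11, and in replicate 2 it was 22.5 with 0.0511.

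In replicate 1 the highest −log10 IDR among these 27 genes was that of the lid gene rpn-5, 1.55 at a signal value of 42.9, 8 bp downstream of its 5′ end. The same gene had a pooled value of 55.9 with a −log10 IDR of 0.369, and 13.7 with 0.169 in replicate 2, so the replicates differed there. The highest pooled signal value of the group was that of pas-5, 60.5, from a summit 920 bp upstream with a −log10 IDR of 0.102. Next were rpn-6.1, which encodes a lid subunit, with 59.4, and rpn-9, another lid gene, with 56.9. The ubiquitin receptor genes rpn-10 and rpn-13 had 22.5 and 35.2, and the scaffold gene rpn-1 had 31.4, which is the median of the group. In replicate 1 the candidates of pbs-5 (rank 2677), rpn-5 (rank 2875) and rpt-3 (rank 4288) stood ahead of that of rpn-2 (rank 4401) by signal value.

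Among the ATPase genes other than rpt-2, pooled signal values were 52.4 for rpt-1, 21.2 for rpt-3, 40.8 for rpt-4, 14.7 for rpt-5 and 24.6 for rpt-6. Among the alpha ring genes pas-1 had 13.8 and pas-2 had 23.6, and in the beta ring pbs-2 had 30.4, pbs-3 had 27.7 and pbs-6 had 11.1. The other non-ATPase genes were rpn-6.2 with 31.0, rpn-8 with 55.6 and rpn-12 with 47.8. All of these values were below that of rpn-2, the lowest of the 6 members with a summit. No pooled candidate lay in the windows of pas-3, pas-6, pas-7, pbs-4, pbs-7 and rpn-7, and pas-6, pas-7 and pbs-7 had none in either replicate's ranked list as well. In replicate 2, pbs-4 had a candidate with a signal value of 41.7, above that of rpt-2 in the same list, but with a −log10 IDR of 0.0946.

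**Figure D2:**
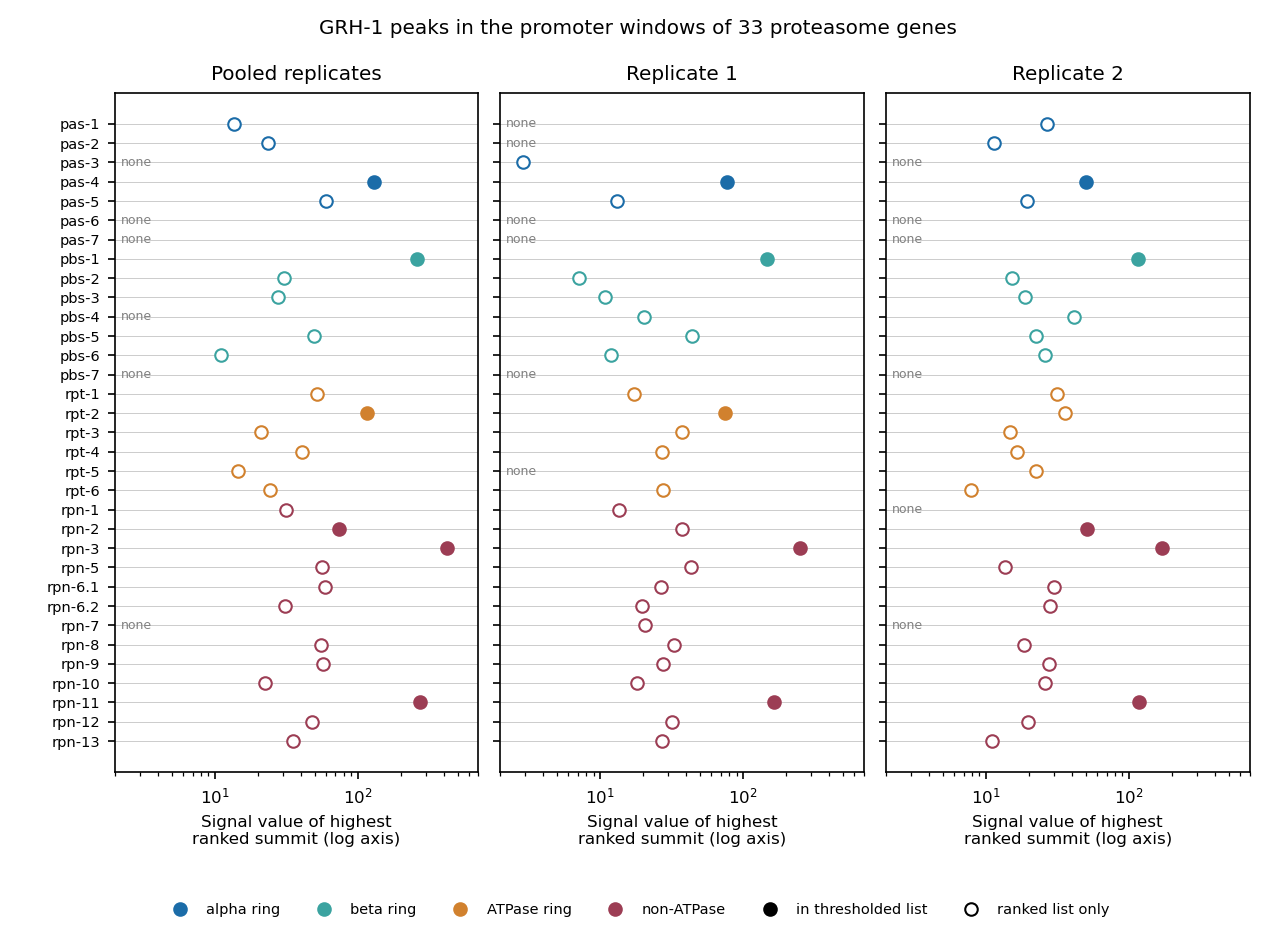
Signal value of the highest ranked GRH-1 summit in the promoter window of each of the 33 proteasome genes, on a log axis, in the pooled and the replicates' ranked lists. Filled points are in the thresholded list of that panel and open points only in the ranked list; in the pooled panel the 6 filled points, at 74.6 and above, lie to the right of every open point, of which the highest is pas-5 at 60.5.

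For these 27 genes the nearest thresholded summit was a median of 19012 bp from the 5′ end, and the farthest was 80024 bp from pbs-6. The nearest was 1122 bp upstream of pas-5, with a signal value of 415, just outside the window. It was followed by one 1289 bp upstream of rpt-6 with a value of 105 and one 1333 bp downstream of the 5′ end of pbs-2, beyond the gene's other end, with a value of 515. A strong peak with a value of 1226 lay 3146 bp upstream of rpn-8.

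The windows were then searched on both strands for sites of Grainyhead and other factors. The Grainyhead palindrome AACCGGTT, its variant AACTGGTT (AACCAGTT on the other strand) and the core ACCGGT were absent within 100 bp of all 6 member summits (0 of 6, upper Wilson limit 39.0%). At least 1 of the 3 was present at 9.24% of the other 1331 promoter summits, so 6 windows are too few to tell the shares apart. The AACCGGTT sites also contain ACCGGT. In the whole promoter windows of the outermost 5′ ends, AACCGGTT occurred in 0 of 33 members (upper limit 10.4%) and in 1.42% of all genes. A site of any of the 3 types occurred in 5 of 33 members (15.2%) and 13.6% of all genes. These were pas-5, pbs-1, pbs-5, pbs-7 and rpt-1, of which pbs-1 had a thresholded summit. Its site, AACTGGTT or the complement, was 119 to 126 bp from the pooled summit on the side away from the gene, and 92 to 99 bp from the summit of replicate 2.

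Other sites that were counted at GRH-1 summits were also missing at the members. The GAGA repeat GAGAGA was in none of the 6 windows and in 32.6% of the other promoter summits. The 8-mer AGACGCAG, taken from earlier results on these peaks, was in 0 of 6 and 12.5%, the E-box CACGTG in 0 of 6 and 9.54%, and the GATA site TGATAA in 0 of 6 and 12.1%. Each of these zeros has the same upper limit of 39.0%. In the whole promoter windows the members resembled all genes, with GAGAGA in 18 of 33 (54.5%, all genes 50.9%), AGACGCAG in 2 of 33 (6.06%, all genes 8.64%), CACGTG in 5 of 33 (15.2%, all genes 18.4%) and TGATAA in 21 of 33 (63.6%, all genes 72.0%). The paired heat shock element TTCNNGAA, which is its own complement, was in 1 of 6 member windows and 9.62% of the other promoter summits. The 1 window was that of rpn-3 and hsp-110, with TTCGAGAA from 20 to 13 bp before the summit. TTCNNGAA also occurred in 22 of 33 whole windows of members (66.7%, all genes 57.9%). In windows centred 500 bp to either side of promoter summits TGATAA was in 17.8% and TTCNNGAA in 14.2%, more than at the summits. There GAGAGA (10.9%), CACGTG (3.8%) and AGACGCAG (0.935%) were less common than at the summits.

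The SKN-1 site was present at 4 of the 6 summits (66.7%, 30.0 to 90.3), those of pbs-1, rpt-2, rpn-2 and rpn-11, and at 6.61% of the other promoter summits. In windows centred 500 bp to either side it was found in 3 of 12 for the members and in 9.57% for all promoter summits. It was searched in the 8 forms AATATCAT, AATGTCAT, ATTATCAT, ATTGTCAT, TATATCAT, TATGTCAT, TTTATCAT and TTTGTCAT. All 4 matches were the single form ATTGTCAT, in 2 cases on the gene's strand (rpt-2 and rpn-11) and in 2 on the other (pbs-1 and rpn-2). That form was chosen for a count of its own after the 4 were seen. It lay within 100 bp of 29 of all 2470 summits (1.17%), of 13 of the 1331 other promoter summits (0.977%), and in 1.31% of windows centred 500 bp to either side of promoter summits. A match of these letters is a description of sequence, and binding by SKN-1 was not measured.

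In all 4 genes ATTGTCAT lay on the gene's side of the summit. Its first base was 27 bp from the summit at rpt-2, 40 bp at rpn-2, 47 bp at pbs-1 and 56 bp at rpn-11, as the capitals in the printed windows show. With the search narrowed to 50 bp to either side, the count was 2 of 6, those of rpt-2 and rpn-2. It was wholly inside the pooled peak at rpt-2 and rpn-2, touched it by 1 base at pbs-1 and was outside it at rpn-11. In the replicates' own lists all 8 bases were inside the peak at pbs-1 and rpn-11 in both replicates, at rpt-2 in replicate 1 and at rpn-2 in replicate 2. Relative to the outermost 5′ end it began 123 bp upstream of rpt-2, 145 bp upstream of pbs-1, 308 bp upstream of rpn-2 and 24 bp downstream of rpn-11. In the replicates' own lists it was within 100 bp of 3 of 5 member summits in each, between 45 and 56 bp away in replicate 1 and between 21 and 74 bp away in replicate 2.

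Members without a summit carried the same 8 bases too. ATTGTCAT was in the whole promoter windows of 8 of the 33 members (24.2%, 12.8 to 41.0) and of 7.43% of all protein-coding genes. Within the 300 bp upstream of the outermost 5′ end alone it was in 5 of 33 members and 1.94% of all genes. The 4 without a GRH-1 summit were pas-2, where it began 111 bp upstream, rpn-12 at 136 bp, rpn-1 at 262 bp and rpt-3 at 819 bp. The site was in 4 of 6 windows of members with a summit, but the form was picked at these summits, so that count was fixed by the choice. The counts of 8 and 5 of 33 include members of that group. The 5 within 300 bp were pbs-1 and rpt-2, which had a summit, and pas-2, rpn-12 and rpn-1, which had none. Among members without a summit the site was in the whole windows of 4 of 27 (14.8%, 5.92 to 32.5), and this interval includes the 7.43% of all genes. Among all 1629 genes with a summit ATTGTCAT was in 6.81% of the windows, a share close to that of all genes. With all forms counted, a SKN-1 site was in 20 of 33 member windows (60.6%, 43.7 to 75.3) and in 48.9% of all windows.

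**Figure D3:**
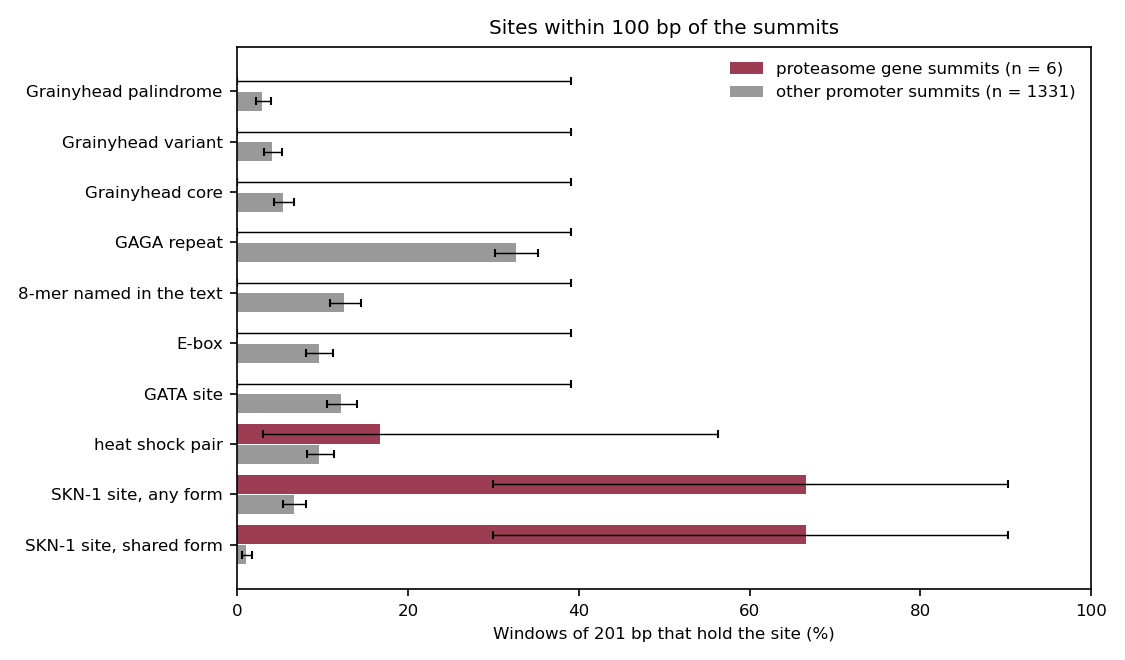
Share of windows of 201 bp, centred on pooled GRH-1 summits, that hold each site, for the 6 summits of proteasome genes and the 1331 other promoter summits; bars are percentages and lines 95% Wilson intervals. The SKN-1 site stands at 66.7% against 6.61%. Its shared form ATTGTCAT, at 66.7% against 0.977%, is the same 4 windows. That form was picked after these were seen, so its bar is no separate result. The Grainyhead, GAGA, E-box, GATA and AGACGCAG sites have no match in the 6 windows, whose intervals reach 39.0%.

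Genes that work with the proteasome were counted in the same way, from lists of 32 names of which 30 were found in the annotation. Of these, 10 had a summit (33.3%, 19.2 to 51.2), where 8.16% of all protein-coding genes had one. The highest was cdc-48.1, which encodes the AAA ATPase that extracts and unfolds ubiquitinated proteins, with a pooled signal value of 1361 (rank 12) and a summit 172 bp upstream. Its paralogue cdc-48.2 had none, and of the other cofactor genes ufd-3 had 1 with a value of 211, so 2 of 7 genes for CDC-48 and its partners had a summit. Of the proteasome-associated genes 4 of 8 had one. They were ubql-1, which encodes a ubiquilin shuttle factor, with 676 (rank 104), ecps-1 with 154, the deubiquitinase gene usp-14 with 104 and aip-1 with 84.7.

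Of 4 genes for ubiquitin and its conjugation, ubq-2 had a summit with a value of 247 and the ubiquitin-conjugating enzyme gene let-70 one with 228, while the polyubiquitin gene ubq-1 and the activating enzyme gene uba-1 had none. In the list of the SKN-1A pathway the gene skn-1 itself had a summit with a value of 122, 519 bp upstream of one of its 5′ ends. Whether that 5′ end belongs to a transcript encoding SKN-1A was not determined. The genes png-1 and ddi-1, whose products process SKN-1A, had none, and neither did sel-1 and sel-11. Of 6 genes of the COP9 signalosome, a complex related to the lid, csn-6 had one with a value of 71.7. The highest summits of cdc-48.1, ufd-3 and skn-1 lay in no other gene's promoter window. Those of ubql-1, ecps-1 and usp-14 were shared with pdi-3, atx-2 and vnut-1, with their own 5′ ends the nearest. At 4 of the 10 genes, ubq-2, let-70, aip-1 and csn-6, another gene shared the summit and its 5′ end was nearer. The summits of 5 were in both replicates' lists (ubq-2, let-70, cdc-48.1, ubql-1 and ecps-1), those of 4 in replicate 1's list only, and that of csn-6 in neither. None of the 10 held a Grainyhead-type site within 100 bp of its highest summit, where 9.24% of the promoter summits outside the members did. Here too, 10 windows are too few to tell the shares apart. The lower of the 2 summits of ecps-1 was not searched. For scale, 30 of 47 large ribosomal subunit genes (63.8%, 49.5 to 76.0) and 21 of 31 small ribosomal subunit genes (67.7%, 50.1 to 81.4) had a summit by the same rule, and no test of the difference was made.

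**Figure D4:**
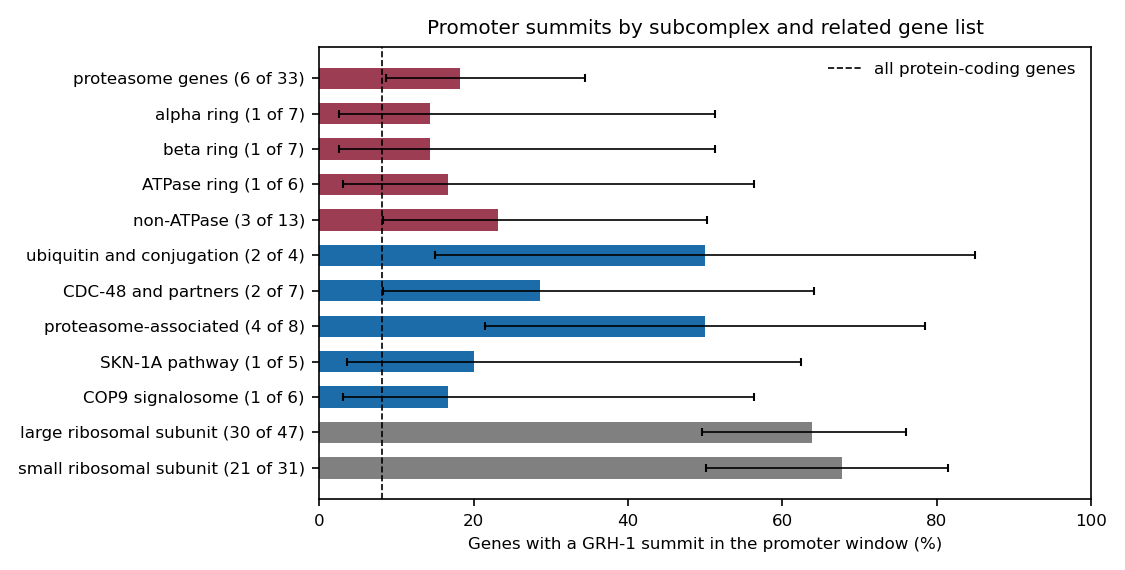
Share of genes with a GRH-1 summit in the promoter window in the pooled list, for all proteasome genes, their 4 subcomplexes, the related lists and, in grey, the ribosomal subunit genes; bars are percentages, lines 95% Wilson intervals and the dashed line the 8.16% of all protein-coding genes. The proteasome genes stand at 18.2% and the 4 subcomplexes between 14.3% and 23.1%. The intervals of the alpha, beta and ATPase rings include the dashed line. Those of all proteasome genes and of the non-ATPase genes start at 8.61% and 8.18%, too close to the line to be read as a difference. The intervals cover counting error only, and no test was made.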

How the data were processed

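Peak lists of 2 replicates and of their pool were used, as deposited by the authors on the build ce11. The signal value in them is the authors' score per peak, and the sources used here name neither its scale nor the aligner and peak caller. The ranked lists as deposited also give the −log10 of the IDR, and every thresholded peak of the pool and of each replicate had at least 2 there (an IDR of 0.01). A few ranked peaks past that limit, 49 in the pool, were not in the thresholded list. The control library and a second pooled ranked list were not analysed here. Further columns of the ranked lists, which have no header, were not used.

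Genes and 5′ ends were those of Ensembl release 115, and sequences those of the RefSeq genome of the same assembly. The tools were Python 3.11.15 with pandas 2.3.3 and numpy 2.4.6, SciPy 1.17.1 for intervals, and matplotlib 3.10.9 for figures. Positions were 1-based. Sites were searched within 100 bp of summits and 500 bp to either side. Members of the list are described beside all genes, and no test was made, since there was 1 group. The members and lists were chosen with earlier results of these data known. Members with a thresholded summit were given in full, other members by their strongest ranked peak, and related genes where they had a summit. The related genes named without one were chosen after their values were seen. The steps were tested on simulated data.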

Additional observations from a re-analysis of the deposited data

How the results depend on the processing

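The number of proteasome genes with a summit was 6 in the conservative list, with ranked peaks at a −log10 IDR of at least 2 or 1.3, with 1 summit per merged region, in the narrower window of 500 bp before and 100 bp after the 5′ end, with the outermost 5′ end only and when a summit was given to its nearest 5′ end alone. Under these settings the share of all protein-coding genes was between 6.15% (nearest 5′ end) and 10.4% (−log10 IDR of at least 1.3). It was 8 with a window reaching 2000 bp upstream, which added pas-5 and rpt-6 (all genes 10.7%), and 4 with the 1235 highest-scoring peaks, which dropped rpt-2 and rpn-2 and lowered the number of all genes with a summit to 1007 (5.04%). With 1 replicate left out, the median signal value was between 116 and 148, on the scales of the replicates' own lists, and the median distance between -196 and -168 bp. With the window of 2000 bp the median distance was -193 bp. A Grainyhead-type site was within 200 bp of 1 summit, that of pbs-1, and with 1 replicate left out the count within 100 bp was between 0 and 1. Added after the data were seen, the count of summits with a SKN-1 site, in each case ATTGTCAT, was 2 within 50 bp, 4 within 200 bp and 3 in each replicate's list. The limit on all of these is the number of summits, 6, and the unknown depth.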
